A study of Homo sapiens with 12 samples.

Results

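The integrin and laminin subunit genes were followed in HK2 cells, an immortalised epithelial line from the proximal tubule of the human kidney cortex. They were taken by symbol from the table of 58278 genes, as the names that start with ITGA, ITGB, LAMA, LAMB or LAMC and stand for a subunit, which gave 38 genes. These were 18 integrin α, 8 integrin β, 5 laminin α, 4 laminin β and 3 laminin γ genes. ITGB3BP, ITGBL1, ITGB1BP1, ITGB1BP2, the pseudogene ITGB1P1 and 4 antisense genes share the prefixes but encode no subunit and were left out. The rule used no measured value, but it was chosen with earlier results of these data known.

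RNA was sequenced from 12 libraries in 6 groups of 2 biological replicates. Ctrl cells were left untreated, and TN cells received TNF-α for 3 h at 5 ng/mL. PRTN and BUTN cells were given 15 mM propionate or 3 mM butyrate for 24 h before the same TNF-α, and TNPR and TNBU cells were given these short-chain fatty acids (SCFAs) after it. All 6 groups grew in RPMI 1640 medium with fetal bovine serum, insulin, transferrin, selenite and hydrocortisone, and all are 1 cell line. A protocol text common to all labels mentions thapsigargin and JQ1 instead. The groups here follow each library's own label. TN cells kept for 24 h more without an SCFA were not analysed here, so in the SCFA contrasts the SCFA and the added culture time cannot be told apart. The doses of propionate and butyrate differ, so their contrasts compare treatments as given and not the molecules.

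Integrins are receptors of the cell surface made of 1 α and 1 β subunit, which bind matrix or other cells outside and the actin or keratin cytoskeleton inside. The α subunit largely sets the ligand: collagens, laminins, or proteins with an RGD motif such as fibronectin, vitronectin and latent TGF-β. Laminins are secreted trimers of an α, a β and a γ chain and form, with type IV collagen, the basement membrane under tubular epithelium, where α3β1 and α6 integrins hold the cells. Integrin αvβ6, an epithelial receptor that activates latent TGF-β, is known from injured kidney and lung.

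Total counts per library ran from 27269986 to 33851130. A level is given in CPM, the count scaled to the library's total and its TMM factor, and 3 counts were worth 0.0886 to 0.11 CPM. Of the proximal tubule markers, 9 of 19, among them LRP2, SLC34A1, SLC22A6, SLC22A8 and HNF4A, stayed under 1 CPM in every library, and the summed level of the list was 768 to 770 CPM in Ctrl, 713 to 762 CPM in TN and 291 to 329 CPM in the SCFA groups. These defining markers of the labelled cell type were thus near absent. In contrast, 8 markers of epithelium summed to 1578 to 1673 CPM in Ctrl and TN and to 1986 to 2584 CPM with an SCFA. That list was split: by the thresholds given below, 3 or 4 were higher and 3 lower than TN in each SCFA group. The shares over all tested genes were 23.1% to 25.0% and 14.8% to 16.9%. KRT8 was at 701 to 785 CPM without an SCFA and at 1070 to 1437 CPM with one. EPCAM, CDH2 and CDH16 were lower in every SCFA library, EPCAM at 13.3 to 23.2 against 55.1 to 58.1 CPM. The SCFA groups differed widely from TN over the whole table, which sets the background for each count below.

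Of the 38 members, 27 reached 1 CPM in at least 1 library and 36 passed the filter on low counts. ITGA8 and LAMA4 were not tested, with at most 4 and 5 counts in any library. The other 9 members under 1 CPM in every library (ITGA4, ITGA9, ITGA10, ITGA11, ITGAD, ITGAL, ITGAM, ITGB7 and LAMB4) were tested. Levels between genes were compared per kilobase of exon. On that scale ITGB1, the shared partner of most α subunits, led in TN with 114 ± 1.62 CPM per kb (SD, n = 2), before LAMC1 with 92.3 ± 1.11 and LAMA5 with 83.4 ± 11.4 CPM per kb. LAMC1 and LAMA5 did not differ beyond their spread, and their order turned when the longest transcript was used as the length. LAMB3, ITGA3, ITGAV and LAMB1 had mean levels of 49.5, 46.4, 37.0 and 35.2 CPM per kb. Of these, LAMB3 and ITGA3 did not differ beyond their spread, nor did ITGAV and LAMB1. With the longest transcript as the length the order of these genes was reversed. LAMB1 was then at 97.0, ITGAV at 90.0, ITGA3 at 83.0 and LAMB3 at 53.4 CPM per kb, so their ranking depends on the length chosen.

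**Figure D1:**
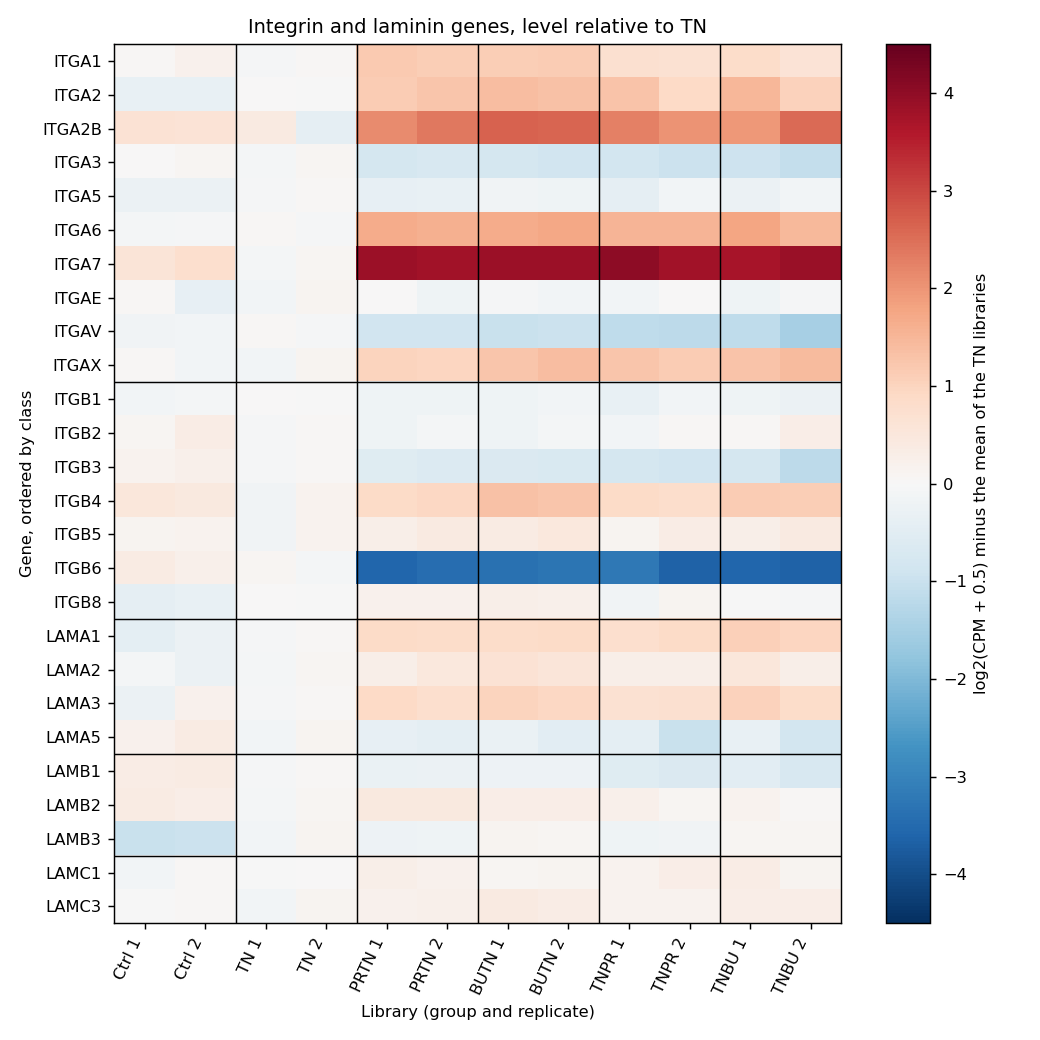
Level of 26 of the 27 genes that reached 1 CPM (rows) in each of the 12 libraries (columns), as log2(CPM + 0.5) minus the mean of the TN libraries. Red is above TN and blue below; ITGA7 stands out as the darkest red row and ITGB6 as the darkest blue row in all 8 SCFA libraries, and LAMB3 is at its lowest in Ctrl.

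The first question was whether TNF-α alone moved these genes. LAMB3, the β3 chain of the epithelial laminin-332 (chromosome 1, 209614870 to 209652425, minus strand, GRCh38), was the 1 member called. It was at 113 and 116 CPM in Ctrl and at 211 and 249 CPM in TN. Each TN library lay above each Ctrl library, and the level rose by 1.00 on the log2 scale (SE 0.07, limma-voom adjusted p = 1.32e-05), a 2.0-fold rise. A member was called when its fold change exceeded 1.5 and its Benjamini-Hochberg adjusted p over the 24342 tested genes was under 0.05. By that rule 0.764% of all genes were higher and 0.534% lower in TN than in Ctrl, against 1 and 0 of the 36 tested members. At an unadjusted p under 0.05, 5 members were higher and 6 lower, as were 2119 and 2021 of all tested genes, and edgeR and DESeq2 each called 1 lower member, ITGA7. ITGA7 had a log2 fold change of -0.86 in the limma fit (adjusted p = 0.117) and of -0.86 in edgeR's quasi-likelihood fit (adjusted p = 0.0252). Fitted on the Ctrl and TN libraries alone, LAMB3 had a log2 fold change of 1.02 with an adjusted p of 0.0544 and was not called. Without TN replicate 2 the value of LAMB3 was 0.88, and ITGB4 was called with a log2 fold change of -0.64 (adjusted p = 0.0168).

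LAMA3, the α chain that joins LAMB3 in laminin-332, was at 32.8 and 44.9 CPM in Ctrl and at 37.8 and 40.3 CPM in TN, so the TN values lay inside the range of Ctrl. Members with an adjusted p under 0.05 and a fold change under the threshold included ITGB8, ITGB4, LAMB1 and LAMB2. ITGB8 had a log2 fold change of 0.37 (limma-voom adjusted p = 0.0263), ITGB4 of -0.49 (0.0159), LAMB1 of -0.35 (0.0177) and LAMB2 of -0.34 (0.0251). LAMB1 and LAMB2 are the β chains of laminin-511 and laminin-521, so within the laminin β class the level of LAMB3 was higher and those of LAMB1 and LAMB2 were lower in TN.

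The stretch before the RefSeq start of LAMB3 is printed because it was the member called after TNF-α, with each match to a GC box (GGGCGG) or to the NF-κB motif, on either strand, in capitals (chr1:209652426-209652675, minus strand, GRCh38.p14).
LAMB3: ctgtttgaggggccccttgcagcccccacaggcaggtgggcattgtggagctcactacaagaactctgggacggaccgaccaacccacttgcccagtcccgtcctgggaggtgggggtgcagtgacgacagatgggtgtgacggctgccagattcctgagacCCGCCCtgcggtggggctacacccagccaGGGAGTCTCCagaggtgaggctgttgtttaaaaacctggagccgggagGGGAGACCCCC
It held 1 GC box and 3 NF-κB matches, 2 of them overlapping at the end of the window. Windows of this length before 35116 RefSeq starts held a GC box in 42.6% and an NF-κB match in 5.21% of cases, and a match is a description of letters, not of binding. RefSeq windows were given for 26 of the 38 members, with a median GC content of 61.2% against 58% over all windows. Among them, the windows of ITGA1, ITGA5, ITGA10 and ITGA11 each held 1 NF-κB match too, and none of these genes was called after TNF-α. The windows printed here were chosen after the values were seen.

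The second question was how cells given an SCFA before or after TNF-α differed from TNF-α alone. In PRTN, 15 members were higher and 5 lower than in TN, where 23.9% of all tested genes were higher and 16.7% lower. In BUTN, 17 were higher and 5 lower, beside 23.1% and 14.8% of all genes. In TNPR, 15 were higher and 6 lower, beside 24.9% and 16.9%, and in TNBU 16 were higher and 6 lower, beside 25.0% and 16.5%. The share of members that were higher was 41.7% to 47.2% of the 36 tested and lay above the background, whereas the share that were lower, 13.9% to 16.7%, was close to it. Of the 27 members that reached 1 CPM in a library, 9 were higher in PRTN, TNPR and TNBU and 10 in BUTN. The other higher calls came from members under 1 CPM in every library, with few counts in TN. The filter used all 12 libraries, so ITGA11, with 0 and 0 counts in TN, passed through its SCFA libraries. The share over all genes at 1 CPM or more was not computed, so no background is given for the 27 members. The median log2 fold change of the tested members was 0.47, 0.54, 0.41 and 0.38 in PRTN, BUTN, TNPR and TNBU, beside 0.09, 0.08, 0.12 and 0.09 over all tested genes. The 4 contrasts share the TN libraries, so their calls are not independent of each other.

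Integrin genes made up most of the calls and also most of the tested members. Of 25 tested integrin genes, 12 or 13 were higher and 4 lower in each SCFA group. Of 11 tested laminin genes, 3 or 4 were higher and 1 or 2 lower. Over all tested genes 23.1% to 25.0% were higher and 14.8% to 16.9% lower. The 15 genes higher in all 4 SCFA groups were ITGA1, ITGA2, ITGA2B, ITGA4, ITGA6, ITGA7, ITGA9, ITGA10, ITGA11, ITGAL, ITGAX, ITGB4, LAMA1, LAMA3 and LAMB4. The 4 genes lower in all of them were ITGA3, ITGAV, ITGB3 and ITGB6. Calls in some of the groups included those of ITGB7 and LAMA2, which were higher, and of LAMA5 and LAMB1, which were lower. Another 12 tested members were called in no SCFA group. With library size alone in place of TMM the median of all genes moved up by 0.156, 0.153, 0.173 and 0.196 on the log2 scale in PRTN, BUTN, TNPR and TNBU against TN, and no called member changed its direction.

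**Figure D2:**
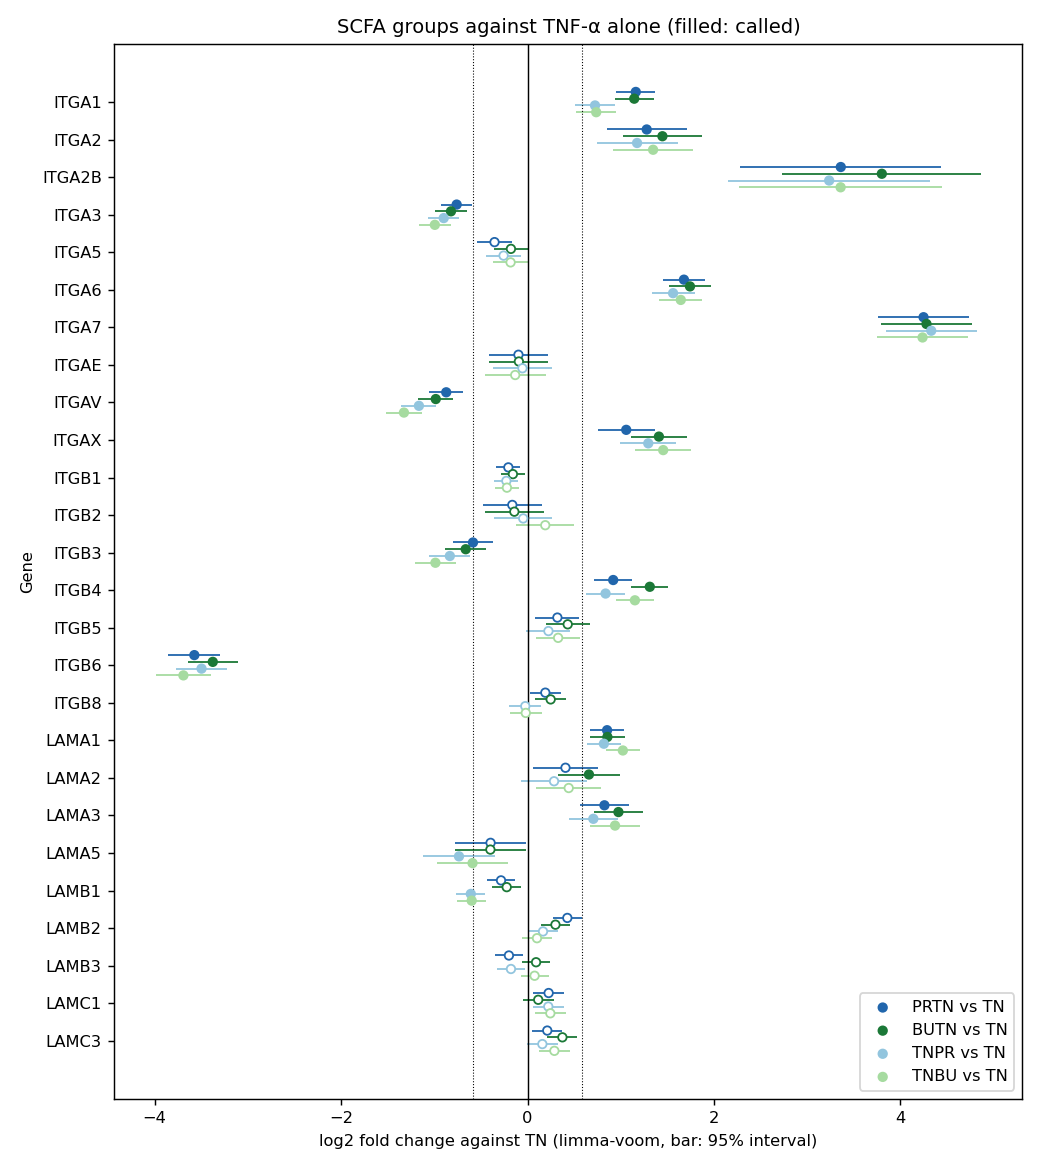
Log2 fold change against TN (x axis) for 26 of the 27 genes that reached 1 CPM (y axis) in the 4 SCFA groups, from limma-voom with 95% intervals; filled points passed both thresholds, and the dotted lines mark a fold change of 1.5. ITGA7 lies at 4.24 to 4.33 and ITGB6 at -3.38 to -3.69, while ITGA5, ITGAE, ITGB1, ITGB2, ITGB5, ITGB8, LAMB2, LAMB3, LAMC1 and LAMC3 have no filled point.

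ITGB6, the β6 subunit that pairs only with αv, fell most among the members. It was at 126 and 112 CPM in Ctrl and at 102 and 91.6 CPM in TN. It was at 7.61 and 8.64 CPM in PRTN, at 9.07 and 9.51 CPM in BUTN, at 9.92 and 7.29 CPM in TNPR and at 7.60 and 7.34 CPM in TNBU. All 8 SCFA libraries lay far below the other 4, and TNPR spanned the range of the other SCFA groups, which did not overlap one another. ITGB6 (chromosome 2, 160099667 to 160200313, minus strand) fell by 3.58 on the log2 scale in PRTN (SE 0.13, adjusted p = 6.72e-10), by 3.38 in BUTN, by 3.50 in TNPR and by 3.69 in TNBU. In linear terms its level in TN was 10.4 to 12.9 times that in the SCFA groups.

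The stretch before ITGB6 that lies upstream of both its RefSeq and its GENCODE start is shown because its window had the lowest GC content of the 26 members matched (chr2:160200314-160200522, minus strand, GRCh38.p14).
ITGB6: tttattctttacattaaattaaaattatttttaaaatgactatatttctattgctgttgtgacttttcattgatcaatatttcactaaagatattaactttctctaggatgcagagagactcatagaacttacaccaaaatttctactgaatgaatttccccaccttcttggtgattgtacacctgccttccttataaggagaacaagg
The full window of 250 bases had a GC content of 30% and no CpG, where the median window of all genes had 58% and 11 CpG. Neither GGGCGG, nor TGANTCA (AP-1), nor TATAAA, nor the NF-κB motif was found in it on either strand. AP-1 and TATAAA matches were present in 6.57% and 10.7% of all windows.

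ITGAV, the αv subunit shared by 5 β partners (chromosome 2, 186590010 to 186680901, plus strand), was at 648 and 662 CPM in Ctrl and at 743 and 689 CPM in TN. It was at 391 and 390.3 CPM in PRTN, at 361 and 362 CPM in BUTN, at 325 and 313 CPM in TNPR and at 324 and 252 CPM in TNBU. Each SCFA library lay below each Ctrl and TN library. ITGAV fell by 0.87 and 0.98 on the log2 scale in PRTN and BUTN and by 1.17 and 1.33 in TNPR and TNBU (SE 0.09 in each), with adjusted p from 8.1e-08 to 2.2e-06.

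ITGB3, the β3 subunit of the vitronectin receptor αvβ3, was at 172 and 181 CPM in Ctrl and at 149.9 and 162 CPM in TN. In PRTN and BUTN it was at 107, 101, 100.3 and 96.7 CPM, and in TNPR and TNBU at 90.2, 84.8, 90.7 and 68.2 CPM. None of the SCFA libraries reached the TN range. ITGB3 fell by 0.59 and 0.66 on the log2 scale in PRTN and BUTN and by 0.83 and 0.99 in TNPR and TNBU (SE 0.10 in each, adjusted p from 3.95e-06 to 0.000267). In PRTN the fold change was 1.5, so the call stood at the fold threshold and was lost without PRTN replicate 2 (-0.58) or without TN replicate 2 (-0.56). The call of ITGB3 in PRTN was also lost in DESeq2 (-0.58), with relative log expression factors (-0.58) and with the filter on the plain geometric mean (-0.58). With library size alone ITGB3 was called in neither PRTN (-0.43) nor BUTN (-0.51).

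The other β partners of αv were not called. ITGB5 was at 37.9 to 47.8 CPM without an SCFA and at 46.3 to 59.3 CPM with one, with log2 fold changes of 0.22 to 0.43 against TN. ITGB8, which like ITGB6 forms a receptor for latent TGF-β, was at 242 and 233 CPM in TN and at 212 to 286 CPM in the SCFA groups, with log2 fold changes of -0.02 to 0.25. The range of ITGB8 in TN overlapped with those of TNPR and TNBU. Each PRTN and BUTN library, at 270 to 286 CPM, lay above both TN libraries. For ITGB5 each PRTN, BUTN and TNBU library lay above TN, and TNPR overlapped with it. ITGB1 was at 1673 and 1639.9 CPM in TN and at 1322 to 1516 CPM in the SCFA groups. Its log2 fold change was -0.16 to -0.23, with adjusted p of 0.0394 or less and under the fold threshold in all 4 groups.

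**Figure D3:**
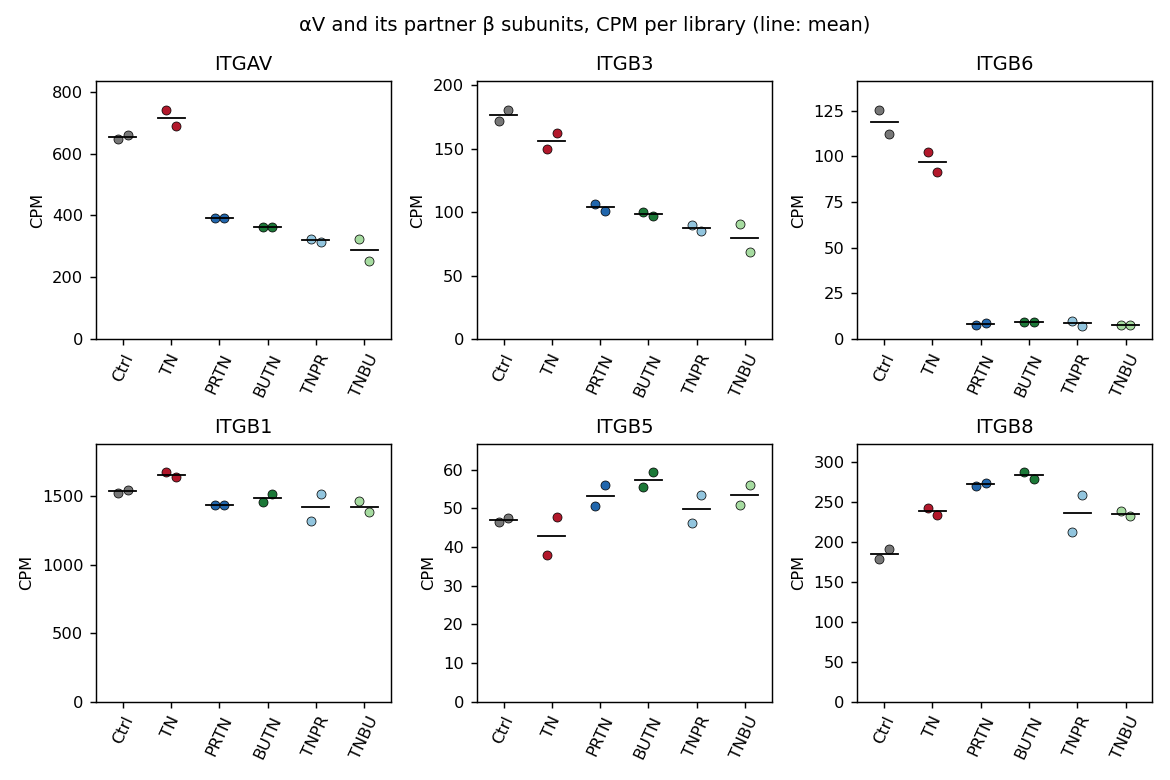
CPM (y axis, from 0) of ITGAV and 5 β subunit genes in each library by group (x axis), with the group mean as a line. ITGB6 drops from 91.6 to 126 CPM in Ctrl and TN to 7.29 to 9.92 CPM in the SCFA groups, and ITGAV and ITGB3 drop less. The ITGB5 and ITGB8 values lie above TN in PRTN and BUTN. Those of ITGB5 in TNPR and of ITGB8 in TNPR and TNBU overlap with TN.

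The laminin-binding α subunits moved in opposite directions. ITGA3, whose α3β1 receptor binds laminin-332 and laminin-511, was at 458 and 477 CPM in Ctrl and at 422 and 488 CPM in TN. It was at 263 and 273 CPM in PRTN, at 265 and 249 CPM in BUTN, at 255 and 232 CPM in TNPR and at 239.7 and 216 CPM in TNBU. No SCFA library came near the Ctrl and TN range. ITGA3 fell by 0.76, 0.82, 0.90 and 0.99 on the log2 scale in PRTN, BUTN, TNPR and TNBU (SE 0.08 in each, adjusted p from 3.58e-07 to 2.97e-06).

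ITGA6, which pairs with β1 or with the hemidesmosomal β4 (chromosome 2, 172427354 to 172506459, plus strand), was at 15.1 and 15.7 CPM in Ctrl and at 16.9 and 15.4 CPM in TN. It was at 53.1 and 50.3 CPM in PRTN, at 53.0 and 55.1 CPM in BUTN, at 47.8 and 47.6 CPM in TNPR and at 56.3 and 45.4 CPM in TNBU. The lowest SCFA library was above the highest library without an SCFA, and Ctrl and TN overlapped. ITGA6 rose 3.2-fold in PRTN (95% interval 2.73 to 3.75), 3.35-fold in BUTN, 2.95-fold in TNPR and 3.12-fold in TNBU, with adjusted p from 4.69e-08 to 9.1e-08.

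ITGB4, the only β partner of α6 besides β1, was at 24.4 and 23.1 CPM in Ctrl and at 15.2 and 18.6 CPM in TN. It was at 31.1 and 32.8 CPM in PRTN, at 43.3 and 40.6 CPM in BUTN, at 30.8 and 29.5 CPM in TNPR and at 37.7 and 37.3 CPM in TNBU. Every SCFA library exceeded both Ctrl and TN, and the butyrate libraries were above the propionate libraries. ITGB4 rose by 0.92, 1.31, 0.84 and 1.15 on the log2 scale in PRTN, BUTN, TNPR and TNBU (SE 0.09 in each, adjusted p from 1.62e-07 to 7.46e-06).

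ITGA7, a laminin receptor subunit best known from skeletal muscle (chromosome 12, 55684568 to 55716404, minus strand), was at 2.13 and 2.40 CPM in Ctrl and at 1.15 and 1.33 CPM in TN. It was at 24.4 and 23.4 CPM in PRTN, at 24.5 and 24.4 CPM in BUTN, at 27.5 and 23.2 CPM in TNPR and at 22.4 and 25.1 CPM in TNBU. The SCFA libraries overlapped among groups and stood apart from the rest. ITGA7 rose 19.0-fold in PRTN (95% interval 13.6 to 26.7), 19.4-fold in BUTN, 20.1-fold in TNPR and 18.9-fold in TNBU, with adjusted p from 9.66e-09 to 1.62e-08. The summed CPM of ITGA3, ITGA6 and ITGA7 was still lower with an SCFA, at 287 to 346 against 440 to 505 in TN, and ITGA3 had the highest level per kilobase of them in each group.

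The windows before ITGA6 and the internal RefSeq start of LAMA3, the genes of an α6 receptor and of its epithelial laminin ligand, are shown for their matches, in capitals, to the GC box, AP-1 or TATAAA motif on either strand (chr2:172427086-172427335 and chr18:23872770-23873019, both plus strand, GRCh38.p14).
ITGA6: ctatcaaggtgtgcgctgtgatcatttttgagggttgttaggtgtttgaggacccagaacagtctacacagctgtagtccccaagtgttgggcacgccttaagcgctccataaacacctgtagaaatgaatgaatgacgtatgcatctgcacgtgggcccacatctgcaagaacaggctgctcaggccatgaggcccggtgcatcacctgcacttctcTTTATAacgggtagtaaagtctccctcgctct
LAMA3: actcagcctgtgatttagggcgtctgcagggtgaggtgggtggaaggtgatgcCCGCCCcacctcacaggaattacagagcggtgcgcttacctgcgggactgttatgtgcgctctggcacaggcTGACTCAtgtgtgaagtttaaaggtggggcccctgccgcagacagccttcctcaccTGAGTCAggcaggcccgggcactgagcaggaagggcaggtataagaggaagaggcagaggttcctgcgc
The ITGA6 window held 1 TATAAA match, and the LAMA3 window held 2 AP-1 matches and 1 GC box. The LAMA3 window lies in an intron of the longer transcripts, so whether this start was used was not measured here.

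The collagen-binding α subunits all rose. ITGA1 was at 13.5 and 15.1 CPM in Ctrl and at 12.6 and 13.5 CPM in TN. It was at 29.8, 28.4, 28.4 and 29.1 CPM in PRTN and BUTN and at 21.6, 21.4, 23.5 and 20.1 CPM in TNPR and TNBU. The libraries given an SCFA before TNF-α were the highest, those given one after it came next, and none overlapped with Ctrl or TN. ITGA1 rose by 1.16 and 1.14 on the log2 scale in PRTN and BUTN and by 0.72 and 0.74 in TNPR and TNBU (SE 0.10 in each, adjusted p from 5.17e-07 to 4.1e-05). PELO lies within ITGA1 on the same strand and was at 29.2 to 43.9 CPM, and how the reads of this region were shared out was not tested.

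ITGA2, the other widely expressed collagen receptor subunit, was at 3.16 and 3.19 CPM in Ctrl and at 4.17 and 4.09 CPM in TN. It was at 9.64 and 10.5 CPM in PRTN, at 11.5 and 11.1 CPM in BUTN, at 10.7 and 8.09 CPM in TNPR and at 12.5 and 8.96 CPM in TNBU. Each SCFA library lay above each library without an SCFA. ITGA2 rose by 1.28, 1.45, 1.18 and 1.35 on the log2 scale (SE 0.20 in each, adjusted p from 4.28e-05 to 0.000252). ITGA10 and ITGA11, whose products bind collagen in cartilage and fibroblasts, were called higher in all 4 groups from few counts. ITGA10 had 5 and 2 counts in the TN libraries and 12 to 24 in the SCFA libraries, and ITGA11 had 0 and 0 counts in TN and 4 to 11.

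Among the RGD-binding α subunits, ITGAV fell as given above, ITGA2B rose and ITGA5 was not called. ITGA5, the fibronectin receptor subunit, was at 168 and 181 CPM in TN and at 132 to 162 CPM in the SCFA groups. Each SCFA library was below TN, and the log2 fold change of -0.18 to -0.35 was under the fold threshold in all 4 groups. ITGA2B, the platelet subunit that pairs with β3, was at 0.67 and 0.179 CPM in TN and at 2.94 to 5.13 CPM in the SCFA libraries. It rose by 3.24 to 3.80 on the log2 scale, a value set in part by the TN library kept. Without TN replicate 2 it rose by 2.29 to 2.86 and without TN replicate 1 by 4.10 to 4.66. ITGA4 and ITGA9, which bind VCAM1, fibronectin and osteopontin, had at most 7 counts in each Ctrl and TN library. They had 14 to 26 and 9.01 to 22 counts in the SCFA libraries, and both were called higher in all 4 groups.

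The leukocyte integrin genes were low throughout. ITGAX, the αX subunit, was at 3.69 and 4.47 CPM in TN and at 8.59 and 8.38 CPM in PRTN, 10.2 and 11.4 CPM in BUTN, 10.3 and 9.69 CPM in TNPR and 10.7 and 11.6 CPM in TNBU. All SCFA libraries were above Ctrl and TN, and ITGAX rose by 1.06, 1.41, 1.30 and 1.46 on the log2 scale (SE 0.14 in each, adjusted p from 1.77e-06 to 3.25e-05). ITGB2, its β partner, was at 5.70 and 6.32 CPM in TN and at 5.19 to 7.50 CPM in the SCFA groups, with overlapping ranges and no call. Its antisense gene ITGB2-AS1 was at 0.569 to 2.79 CPM. ITGAE was at 8.30 and 9.80 CPM in TN and at 7.87 to 9.11 CPM in the SCFA groups and was not called. ITGAL, the αL subunit, had 1 and 3 counts in TN and 15 to 29 in the SCFA libraries and was called higher in all 4 groups. ITGB7 was called higher in BUTN and TNBU only, from 1 and 2.01 counts in TN to 2.03 to 14.2 in the SCFA libraries, and its calls rested on single libraries. The call in BUTN was lost without either Ctrl library, either TN library or BUTN replicate 1 (log2 fold changes of 1.59 to 2.34), and that in TNBU without either TN library or TNBU replicate 2 (1.65 to 2.57). ITGAM and ITGAD were not called.

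Leukocyte markers moved beside these genes. Of 15 markers, 12 stayed under 1 CPM in every library, MS4A1 was at 0 counts in every library, and PTPRC, which marks all leukocytes, had at most 5 counts. The summed level of the list was 1.17 to 1.58 CPM in Ctrl and 1.08 CPM in both TN libraries. It was 6.10 to 7.32 CPM in PRTN, 6.10 to 7.64 in BUTN, 3.67 to 5.31 in TNPR and 4.27 to 5.81 in TNBU, with CD14 at 2.13 to 3.53 CPM of it. Of 7 endothelial markers, 4 stayed under 1 CPM in every library, and their sum was 0.275 to 0.467 CPM without and 2.70 to 4.47 CPM with an SCFA. Of 8 fibroblast markers, the sum was 53.5 to 60.7 CPM without and 205 to 257 CPM with an SCFA, most of it COL1A1. LUM was at 6.09 to 8.30 CPM without and at 31.8 to 60.7 CPM with an SCFA. DCN and THY1 stayed at or under 1.12 CPM. In the SCFA groups 5 or 6 of the 8 were called higher and 1 or 2 lower than TN. The shares over all tested genes were 23.1% to 25.0% and 14.8% to 16.9%. The part of these markers in the integrin results was not tested.

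Calls of other low genes also rested on single libraries. Without TN replicate 2, ITGA10 had log2 fold changes of 1.35 to 1.58 and was called in no SCFA group, and ITGA9 had 1.30 to 2.05 and was called in TNPR only. LAMB4, without TN replicate 2, had 1.71 to 2.76 and was called in PRTN only. Without TN replicate 1, ITGA4 was called in no SCFA group, with log2 fold changes of 2.42 to 2.89, and ITGAL kept its calls at 2.11 to 2.50. ITGA4 was also lost in TNPR without TN replicate 2 (3.11). ITGA11 lost its call in BUTN without either TN library (3.14 and 3.09) or BUTN replicate 1 (2.81). ITGA10 was also lost in BUTN without BUTN replicate 2 (1.52), ITGA9 in PRTN without PRTN replicate 1 (2.55) and LAMB4 in TNBU without TNBU replicate 2 (2.29).

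Of the laminin α chains, LAMA5 was called lower in TNPR and TNBU. LAMA5, the main α chain of the mature tubular basement membrane, was at 1367 and 1533 CPM in Ctrl and at 1077 and 1308 CPM in TN. It was at 929.6 and 875 CPM in PRTN, at 958 and 848 CPM in BUTN, at 866 and 586 CPM in TNPR and at 941 and 662 CPM in TNBU. The SCFA libraries were all below TN, and replicate 2 was well below replicate 1 in TNPR and TNBU. Over all kept genes the replicates also differed most in these groups. Their median absolute log2 difference was 0.14 in TNPR and 0.158 in TNBU, beside 0.0828 to 0.104 in the other groups. The fit shared 1 estimate of the spread over the 6 groups. LAMA5 fell by 0.74 (SE 0.18, adjusted p = 0.00307) on the log2 scale in TNPR and by 0.59 (adjusted p = 0.0118) in TNBU. It had log2 fold changes of -0.40 in both PRTN and BUTN and was not called there. Without TNPR replicate 2 the value in TNPR was -0.51, and without TNBU replicate 2 that in TNBU was -0.36, and neither was then called. The call in TNBU was also lost without TN replicate 2 (-0.47) and in edgeR (-0.57) and DESeq2 (-0.56), and with library size alone LAMA5 was called in neither TNPR (-0.56) nor TNBU (-0.39).

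LAMA3 and LAMA1 rose in all SCFA groups. LAMA3 was at 73.0 and 65.5 CPM in PRTN, at 78.0 and 75.6 CPM in BUTN, at 62.7 and 64.7 CPM in TNPR and at 80.8 and 69.5 CPM in TNBU, against 37.8 and 40.3 CPM in TN. These libraries were all above the 32.8 to 44.9 CPM of Ctrl and TN, and LAMA3 rose by 0.82, 0.98, 0.71 and 0.94 on the log2 scale (SE 0.12 in each, adjusted p from 2e-05 to 0.000282). LAMA1, the α chain of the early laminin-111, was at 16.6 and 18.9 CPM in Ctrl, at 21.7 and 23.3 CPM in TN and at 37.9 to 47.5 CPM in the SCFA groups. It rose by 0.85, 0.86, 0.82 and 1.02 on the log2 scale (SE 0.08 in each, adjusted p from 5.51e-07 to 3.58e-06), and no SCFA library overlapped with TN. LAMA2, the muscle and nerve chain, was called in BUTN only, with a log2 fold change of 0.66, and lost the call without BUTN replicate 1 (0.57) or TN replicate 1 (0.53).

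Of the β chains, LAMB1 passed both thresholds as lower in TNPR and TNBU. It was at 826 and 835 CPM in Ctrl and at 633 and 675 CPM in TN. It was at 529.9 and 543 CPM in PRTN, at 564 and 555 CPM in BUTN, at 443 and 415 CPM in TNPR and at 471 and 395 CPM in TNBU. The libraries formed steps without overlap, from Ctrl over TN and the earlier to the later SCFA. LAMB1 fell by 0.61 and 0.60 on the log2 scale in TNPR and TNBU (SE 0.07 in each, adjusted p = 1.14e-05 and 1.46e-05), and the log2 fold changes of -0.28 and -0.22 in PRTN and BUTN were under the fold threshold. The call in TNBU was lost without TN replicate 2 (-0.57) or TNBU replicate 2 (-0.50) and in DESeq2 (-0.58). With library size alone in place of TMM the calls of LAMB1 in TNPR (-0.44) and TNBU (-0.40) were both lost.

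LAMB3 was not called against TN in any SCFA group. It was at 197 and 202 CPM in PRTN, at 247 and 242 CPM in BUTN, at 200.3 and 205 CPM in TNPR and at 241 and 242 CPM in TNBU, against 211 and 249 CPM in TN and 113 and 116 CPM in Ctrl. The propionate libraries lay below TN and the butyrate libraries within its range, and the log2 fold changes against TN were -0.20, 0.09, -0.18 and 0.08. LAMB2 was at 147 and 165 CPM in TN and at 160.5 to 209.8 CPM with an SCFA and was not called.

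LAMA3 was thus higher with an SCFA than in TN, while LAMB3, its partner in laminin-332, was not called. Of the γ chains, LAMC1 was at 773 and 786 CPM in TN and at 838 to 995 CPM with an SCFA, and LAMC3 at 79.2 and 94.3 CPM and at 96.4 to 115 CPM, and neither was called.

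**Figure D4:**
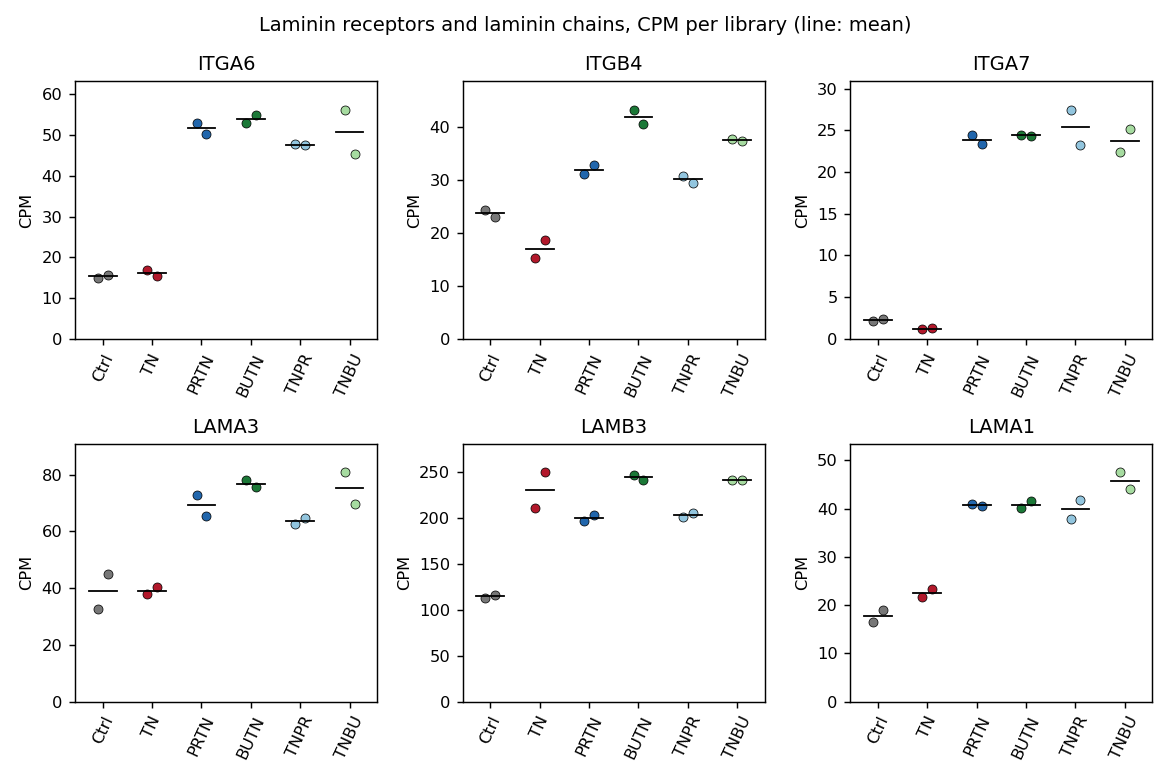
CPM (y axis, from 0) of 3 laminin receptor genes and 3 laminin chain genes in each library by group (x axis), with the group mean as a line. ITGA6, ITGB4, ITGA7, LAMA3 and LAMA1 are higher in all SCFA libraries than in Ctrl and TN, and LAMB3 is lower in Ctrl than in the other groups.

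Within each class, the share of a gene in the summed CPM per kilobase was followed as a description without a test. ITGB1 made up 59.9% and 60.2% of the integrin β level in the Ctrl libraries, a mean of 63.6% in TN and 66.9% to 69.5% in the SCFA groups. ITGB6 went from 11.7% in Ctrl and 9.36% in TN to 0.917% to 1.07%, and ITGB3 from 12.8% in TN to 8.23% to 10.4%. ITGB8 held 8.77% in TN and 11.0% to 12.2% with an SCFA, and ITGB4 1.40% and 3.19% to 4.07%. Among the α genes, ITGA3 held 41.0% in TN and 30.7% to 33.0% with an SCFA. ITGA6 went from 2.15% in TN to 9.24% to 10.0%, ITGA7 from 0.121% to 3.18% to 3.62%, and ITGAV from 32.8% to 19.6% to 24.4%. In the laminin β class LAMB3 went from 25.1% in Ctrl to 46.0% in TN and 41.9% to 52.2% with an SCFA, while LAMB1 went from 45.6% to 32.8% and 23.3% to 28.2%. With the longest transcript as the length, the share of ITGB6 went from 5.46% in TN to at most 0.601%, and that of LAMB3 from 14.4% in Ctrl to 30.0% in TN. On that length LAMB1 held the larger share in TN, at 54.6%, and ITGAV held 41.7% beside 38.3% for ITGA3. In TN, which gene leads the integrin α and the laminin β class thus depends on the length chosen, and the replicates of ITGAV and ITGA3 overlapped on that length. ITGB1, LAMA5 and LAMC1 led the other classes in TN on either length. Their shares were 63.6%, 95.1% and 66.1% per kb of exon and 77.1%, 94.4% and 62.5% with the longest transcript.

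**Figure D5:**
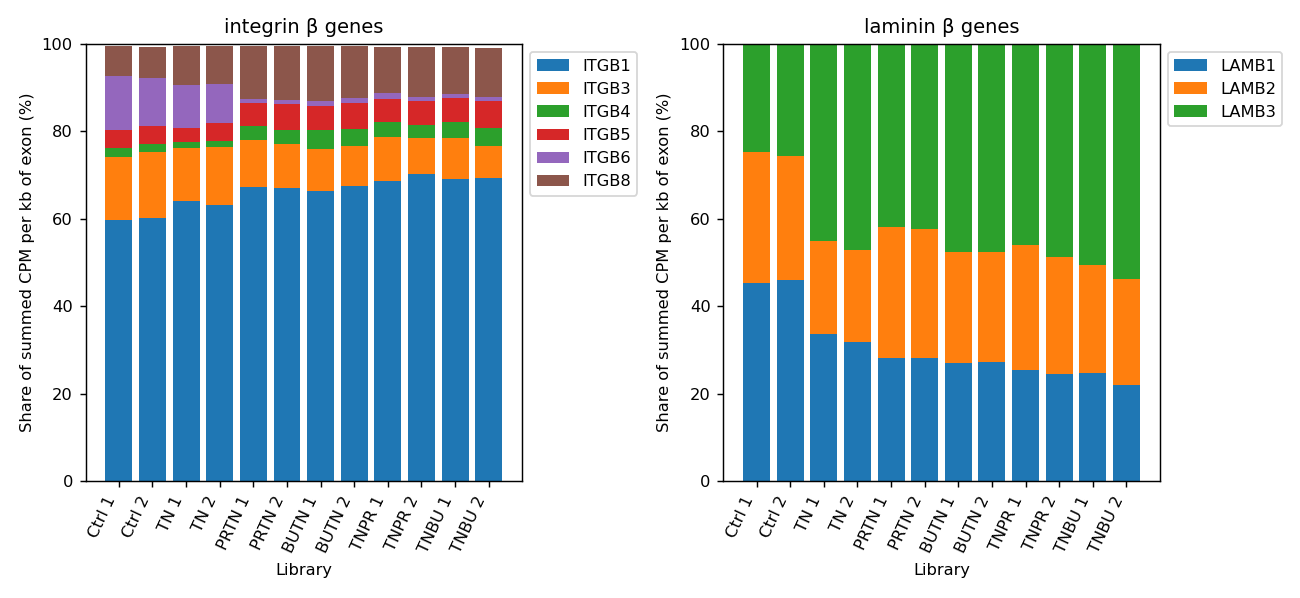
Share of each gene in the summed CPM per kb of exon of its class (y axis, percent, stacked) in each library (x axis), for the integrin β and the laminin β genes that reach 1% in a library. The ITGB6 band shrinks from 8.87% to 12.4% in Ctrl and TN to about 1% with an SCFA, and the LAMB3 band is narrower in Ctrl than in all other groups.

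The next question was whether propionate and butyrate differed. In PRTN against BUTN, 0 members were higher and 0 lower, beside 0.0411% and 0.127% of all genes, and in TNPR against TNBU again 0 and 0, beside 0.0% and 0.00822%. With limma-voom 0 and 5 members reached an unadjusted p under 0.05 in the former and 0 and 3 in the latter, and edgeR and DESeq2 called 0 in each. The nearest was ITGB4, lower in PRTN than in BUTN by 0.39 on the log2 scale (95% interval of the difference -0.57 to -0.22, adjusted p = 0.0557). After TNF-α the difference in ITGB4 was -0.31 (interval -0.50 to -0.13, adjusted p = 0.345). LAMB3 differed by -0.29 (interval -0.44 to -0.14, adjusted p = 0.0801) before and by -0.25 (interval -0.40 to -0.10, adjusted p = 0.345) after TNF-α. For these genes the intervals leave out 0, but the adjusted p misses the threshold. For ITGB6 the difference was -0.20 (interval -0.53 to 0.13) before and 0.19 (interval -0.16 to 0.55) after TNF-α, and for ITGA7 it was -0.03 (interval -0.23 to 0.16) and 0.09 (interval -0.11 to 0.29).

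The time of addition was compared within each SCFA. PRTN and BUTN cells received TNF-α last, whereas in TNPR and TNBU the 24 h with an SCFA followed it. The order of addition and the time since TNF-α therefore cannot be told apart in these contrasts. In TNPR against PRTN 0 members were higher and 0 lower, beside 0.0534% and 0.107% of all genes. In TNBU against BUTN the counts were 0 and 0, beside 0.0945% and 0.173%. An unadjusted p under 0.05 was reached by 1 and 6 members in the former and by 2 and 6 in the latter, and edgeR and DESeq2 called 0. LAMB1 was lower, by 0.38 on the log2 scale for butyrate (interval -0.53 to -0.22, adjusted p = 0.0396), and its difference for propionate was -0.32 (adjusted p = 0.123). ITGA1 differed by -0.44 (adjusted p = 0.0705) and -0.41 (adjusted p = 0.0534), and ITGAV by -0.29 and -0.34 (adjusted p = 0.244 and 0.108). The calls of LAMB1 against TN in TNPR and TNBU were thus not matched by a called difference between the times. For the difference of these differences between the SCFAs, 0 members were higher and 0 lower, as were 0.0% and 0.0% of all genes. There, 0 and 0 members had an unadjusted p under 0.05, beside 558 and 377 of all tested genes. For the members, edgeR and DESeq2 gave 0 calls.

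Some members are neighbours on the same strand. ITGA1 and ITGA2 lie 30.1 kb apart on chromosome 5 and both rose in all SCFA groups. LAMB1 and LAMB4 lie 20.3 kb apart on chromosome 7, and LAMB4 was called higher in all 4 SCFA groups and LAMB1 lower in TNPR and TNBU. On chromosome 16 ITGAX lies 22.2 kb from ITGAM and 10.3 kb from ITGAD, and of these 3 genes ITGAX alone was called.

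Genes that work with integrins and laminins were counted from lists put together by function. Of 43 tested adaptors and kinases at the integrin tail, 9 to 11 (20.9% to 25.6%) were higher and 11 to 13 (25.6% to 30.2%) lower in the SCFA groups, beside 23.1% to 25.0% and 14.8% to 16.9% of all tested genes. The higher share was thus close to the background, and the list had a median log2 fold change of -0.03 to -0.12. PTK2B, a relative of focal adhesion kinase, rose by up to 2.94 on the log2 scale, from 1.81 ± 0.134 CPM in TN (SD, n = 2) to 11.0 ± 0.306 CPM in PRTN. TGFB1I1 (Hic-5), a paxillin relative, fell by 2.37 to 2.59, from 81.4 ± 2.65 CPM to 13.5 ± 1.06 CPM in PRTN, and TNS1 (tensin) fell by 1.43 to 1.79. TNS4, another tensin, was at 0 in both TN libraries and at 1.09 to 1.59 CPM on average in the SCFA groups.

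Of 12 tested genes of hemidesmosomes and tetraspanins, 3 or 4 (25% to 33.3%) were higher and 1 or 2 (8.33% to 16.7%) lower, against the same background. CD63, a tetraspanin, fell by 1.11 to 1.24 on the log2 scale from 404 ± 35.4 CPM in TN, and CD9, another tetraspanin, had means of 0.0186 CPM in TN and 7.67 to 9.10 CPM with an SCFA. KRT14 stayed under 1 CPM in every library. Of 21 basement membrane partners, 7 to 11 (33.3% to 52.4%) were higher and 2 or 3 (9.52% to 14.3%) lower. COL4A1 and COL4A2, the main chains of type IV collagen, fell by 1.10 to 1.49 and by 0.76 to 0.96, COL4A1 from 2480 ± 99.5 CPM in TN to 1002 ± 14.3 CPM in PRTN. FREM2 rose by 3.16 to 3.57 on the log2 scale from a mean of 0.40 CPM in TN.

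Of 19 tested laminin receptors that are no integrins, 3 or 4 (15.8% to 21.1%) were higher and 1 to 4 (5.26% to 21.1%) lower, so the higher share was under the background and the lower share lay around it. BCAM, the Lutheran receptor for laminin α5, rose by 2.80 to 3.27 on the log2 scale, from 12.4 ± 1.67 CPM in TN to 119 ± 6.19 CPM in PRTN. SDC3, a syndecan, rose by 0.67 to 0.96. Of 29 ligand genes, 15 or 16 (51.7% to 55.2%) were higher and 5 to 9 (17.2% to 31%) lower. SPP1, osteopontin, fell by 1.69 to 1.74 from 355 ± 7.53 CPM to means of 107 to 109.6 CPM, and VCAM1 from 7.68 ± 0.302 CPM to means of 0.154 to 0.214 CPM. CDH1, E-cadherin and the ligand of αEβ7, was at 0.109 ± 0.0489 CPM in TN and at 9.94 to 14.1 CPM with an SCFA, and FBLN5 went from 0.0359 CPM to between 2.55 and 3.93 CPM.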

How the data were processed

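The 12 libraries hold RNA from HK2 cells, 2 for each of 6 groups taken from the label of each library. The authors prepared stranded mRNA libraries, aligned the reads to GRCh38 with STAR (2.6.1a per the labels) and deposited expected counts per gene from RSEM on GENCODE 26, neither scaled nor filtered. Whether RSEM was told the strand is not given in the sources used here. RSEM splits reads that match several genes, so 18.0% to 20.1% of the deposited expected counts in a library were not whole.

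Expected counts were read unrounded. Genes were kept where the geometric mean of the count plus 1, minus 1, was at least 1, which left 24342 of 58278. limma 3.58.1 with voom weights and TMM factors (0.913 to 1.06) from edgeR 4.0.16, in R 4.3.3, fitted a mean per group to all 12 libraries, with Benjamini-Hochberg adjustment over all kept genes, and calls needed a fold change above 1.5 with adjusted p below 0.05. edgeR's quasi-likelihood test and DESeq2 1.42.0, on rounded counts, were alternatives, and the fit was tested on simulated data. The labels do not say that replicates came from separate passages, and p-values measure the spread between these libraries. Per-length levels used exon lengths from GENCODE 44.

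Values are given for each member called after TNF-α, the 8 largest called rises and falls with at least 1 CPM in each SCFA contrast, each member called between SCFAs or times, and the subunits best known in epithelia. From each companion list the 2 largest called rises and falls are named. Members and lists were chosen with earlier results of these data known. Values of a few genes that these rules would name are not reported here, in text or figures, but the genes stay in the counts.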

Additional observations from a re-analysis of the deposited data

How the results depend on the processing

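All 86 log2 fold changes of called members against TN or Ctrl kept their direction over the 1790 values that alternative settings gave. At most 21 settings were run per fold change, on the same libraries or some of them, so these values are not independent. Of these values, 61 fell short of a threshold, mostly for ITGA4, ITGA9, ITGA10, ITGA11, ITGB7, LAMB4, LAMA5 and LAMB1 and for ITGB3 in PRTN. In TN against Ctrl, 0 members were higher when only the groups compared were fitted and 3 by the adjusted p alone, while 1 was lower in edgeR, 1 in DESeq2 and 3 by the adjusted p alone. By the adjusted p alone 9 members were lower in PRTN and 10 in TNPR, 1 was higher in TNPR against PRTN, and 1 higher and 1 lower in TNBU against BUTN. At a fold change over 2, 1 member was lower with either SCFA given before TNF-α (PRTN 1, BUTN 1) and 2 were lower with either given after it (TNPR 2, TNBU 2). With library size alone 3 members were lower in BUTN, and of the called members 85% were higher there against 77.3%, while over all genes the higher share went from 58.9% to 68.5% in PRTN, from 60.9% to 71.2% in BUTN, from 59.6% to 69.8% in TNPR and from 60.2% to 72.0% in TNBU. For members lower than Ctrl in TN, leaving out 1 library at a time gave 0 to 1. The counts in the SCFA groups ranged from 12 to 17 higher and from 4 to 6 lower when 1 library was left out.

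With the replicate number added as a replicate block, 1 member was higher in TN than in Ctrl, 15, 16, 15 and 16 were higher and 5, 5, 6 and 6 lower in PRTN, BUTN, TNPR and TNBU, and 0 differed between SCFAs or times. The deviations of libraries with the same number had correlations of -0.0791 to 0.24 over 15 pairs of groups, 1 of them over 0.1. Whether libraries with the same number were handled together was not tested. Over all genes, fitting only the groups compared left 79 higher and 12 lower in TN against Ctrl, in place of 186 and 130. With 2 replicates per group no library could be checked against its own group, and counts under 30 limited the genes under 1 CPM. The causes of these differences were not tested.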
